A study of Ictalurus punctatus and Ictalurus punctatus x Ictalurus furcatus with 18 samples.

Results

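The 100 transcripts described here were those most abundant in liver of the Red River strain relative to the Delta Select strain of channel catfish, out of 144746 assembled transcripts in the count table. They were chosen on levels in CPM, the reads of a transcript per 1000000 reads that the library had on all transcripts. A transcript needed a mean of at least 2 CPM over the 6 Red River libraries, which 34514 transcripts reached. Its lowest Red River library also had to lie above the highest of 4 Delta Select libraries (H3, H5, H9 and L8), as it did for 442 of these, or 1.28%. The mean of the 6 hybrid libraries had to be at least 0.35 of the lower of the Red River mean and the mean of H3, H5 and H9, which 430 met. The 100 with the highest ratio of the Red River mean to the mean of those 4 Delta Select libraries were taken. In the opposite direction, with a mean of at least 2 CPM in those 4 libraries and all of them above every Red River library, there were 481 transcripts.

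The fish were fingerlings that had spent 6 weeks in water whose temperature cycled each day, within 32 to 36 °C in the high regime and 27 to 31 °C in the low regime. The types were the Red River strain (RRxRR, Ictalurus punctatus), the Delta Select hybrid (labelled as a cross of Ictalurus punctatus and Ictalurus furcatus, the blue catfish) and the Delta Select strain (DSxDS, Ictalurus punctatus). Each type had 3 libraries in each regime, and each library pooled the RNA of 3 fish that shared a tank, so a library stands for that tank. At the high temperature the Red River libraries were H1, H4 and H7, the hybrid libraries H2, H6 and H8, and the Delta Select libraries H3, H5 and H9. At the low temperature they were L2, L6 and L9, then L1, L4 and L7, then L3, L5 and L8.

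Channel catfish is a warm-water species whose body temperature follows that of the water, and its farmed strains descend from different founder fish. Its liver makes plasma proteins, stores and releases fuel and takes part in the response to thermal stress. The hybrid carries 1 chromosome set from each species, so transcripts of both parents can be present in its liver. An assembled transcript can stand for a gene, a splice form or an allele, and its level counts the reads assigned to that sequence. The identifiers give a k-mer size and a number, and 0 of the 100 had an entry in the channel catfish gene table used as reference. No gene name, function or position is therefore given for any of them, and markers of liver or of other cell types could not be looked up. In bulk RNA, fewer cells of a type and less RNA per cell cannot be told apart.

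Libraries L3 and L5 stood apart before any result was drawn. Both are labelled Delta Select at the low temperature, yet both held members that were otherwise abundant in hybrids, and the rule that chose the members left them out. Among the 3083 transcripts with at least 2 CPM in Red River fish whose hybrid libraries all lay above every Red River library, L3 lay above all 4 other Delta Select libraries in 78.2% and L5 in 67.5%. Of these transcripts 8 were members, and L3 lay above those 4 libraries in 6 of them and L5 in 8, to which the choice of members for low values in those 4 libraries adds. Results that rest on these libraries are given with and without them. Library totals ran between 36242058 and 76146359 reads, so that 1 read was worth between 0.0131 and 0.0276 CPM. Over transcripts with at least 2 CPM in Red River fish, the median log2 ratio of the Red River mean to the mean of those 4 Delta Select libraries was -0.0019. The median log2 ratio of the hybrid mean to the Red River mean was -0.18 over the same transcripts. These transcripts were chosen on their Red River level, which favours Red River in both values, so the values only describe them.

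The members ranged from transcripts nearly missing in the 4 Delta Select libraries of the rule to transcripts about 2 times as abundant in Red River liver. This describes the values that chose them and is no test. The 6 Red River libraries were evenly split between the temperatures, whereas of the 4 Delta Select libraries only L8 was at the low temperature. The ratios and ranks therefore mix strain with temperature. The ratio of the Red River mean to the Delta Select mean of the 4 libraries ran from 52.1 down to 1.98, with a median of 2.62 and quartiles of 2.23 and 3.93. It was at least 10 in 13 members, at least 5 in 20 and at least 3 in 39. The lowest Red River library exceeded the highest of the 4 Delta Select libraries by a median of 1.29 times, and by as little as 1.02 times. Most members were of low abundance, with a median Red River mean of 5.03 CPM, 49 members under 5 CPM and 26 at 10 CPM or more. Only 3 reached 100 CPM. The read numbers behind them were nevertheless ample in Red River fish, where no member had under 506 reads over the 6 libraries. Over the 4 Delta Select libraries 14 members had under 100 reads.

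**Figure D1:**
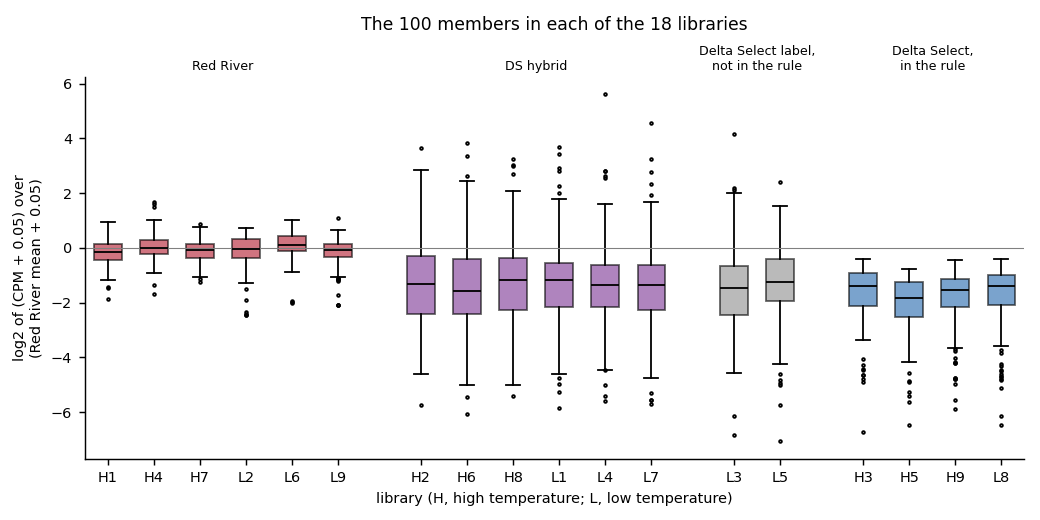
Levels of the 100 members in each of the 18 libraries, as log2 of the CPM plus 0.05 over the Red River mean plus 0.05; boxes span the quartiles with the median as a line, whiskers reach the farthest values near the box and dots are values beyond. Relative to the Red River mean, the median member lay between 0.908 and 1.09 in Red River libraries, between 0.328 and 0.440 in hybrid libraries, at 0.355 in L3 and 0.411 in L5, and between 0.276 and 0.373 in the other Delta Select libraries.

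The member of highest ratio, k78:1292919, owed its rank to near absence in the 4 Delta Select libraries of the rule. It was itself scarce in Red River fish and most abundant in hybrids. Its level in Red River libraries was 0.331 CPM at the lowest, 1.94 at the median and 4.42 at the highest, against 0.0263 CPM in H3, 0.0204 in H5, 0.0652 in H9 and 0.0451 in L8. The Delta Select values rest on 8 reads in all, against 515 reads in Red River fish. The ratio of summed reads, scaled for depth, was 55.1, with a 95% exact interval of 27.8 to 128.4 that covers counting error only. The interval leaves out the spread between tanks and the choice of this member for its ratio, so it lends the ratio no support. In hybrids it had 16.8 CPM at the lowest, 28.1 at the median and 102.3 at the highest. L3 had 37.1 CPM and L5 10.96 CPM, both above every Red River library, so for this transcript the libraries labelled Delta Select fell far apart.

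The next member, k82:1032919, was almost exclusive to Red River liver. Its level was 7.497 CPM in the lowest, 16.2 in the median and 18.7 in the highest Red River library, against 0.0919 CPM in H3, 0.122 in H5, 0.4996 in H9 and 0.518 in L8. Hybrid libraries had between 0.212 and 0.521 CPM, and L3 and L5 had 0.0832 and 0.0633 CPM. All 12 libraries of the other types thus lay far below every Red River library, the lowest of which was 14.5 times the highest of the 4 Delta Select libraries. The hybrid and Delta Select libraries overlapped.

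Of the 3 members that reached 100 CPM, the 2 most abundant are given here and k78:811893, with a ratio of 9.52, further on. The transcript k78:1214883, of rank 74, had 851.4 CPM in the lowest, 973.1 in the median and 1276 in the highest Red River library, against 503.5 CPM in H3, 544.8 in H5, 375.8 in H9 and 397.0 in L8. Its ratio was 2.24. Hybrid libraries were higher than both strains, at 3062 CPM in the lowest and 3660 in the highest, and L3 and L5 had 3020 and 1808 CPM. The transcript k50:1393745, of rank 27, had 489.8 CPM in the lowest, 694.2 in the median and 831.4 in the highest Red River library. The 4 Delta Select libraries spread more than 10-fold, with 164.2 CPM in H3, 38.6 in H5, 413.5 in H9 and 82.4 in L8. Hybrid libraries overlapped Red River libraries for this transcript, from 444.5 to 899.6 CPM, and L3 and L5 had 419.9 and 214.9 CPM.

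The limit of the list fell among transcripts of nearly equal ratio. The last member, k90:1941671, had 71.4 ± 14.4 CPM (SD) in the 6 Red River libraries and 36.1 ± 9.84 CPM in the 4 Delta Select libraries, a ratio of 1.98. The first transcript left out, k82:333772u, had 8.97 ± 1.66 and 4.57 ± 1.53 CPM in the same libraries, a ratio of 1.97. The hybrids had less of the last member than Red River fish and the 4 Delta Select libraries. Hybrid libraries lay between 11.1 and 19.4 CPM, all below the lowest of those 4 Delta Select libraries at 26.9 CPM. L3 and L5, at 16.2 and 16.7 CPM, lay within the hybrid range.

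**Figure D2:**
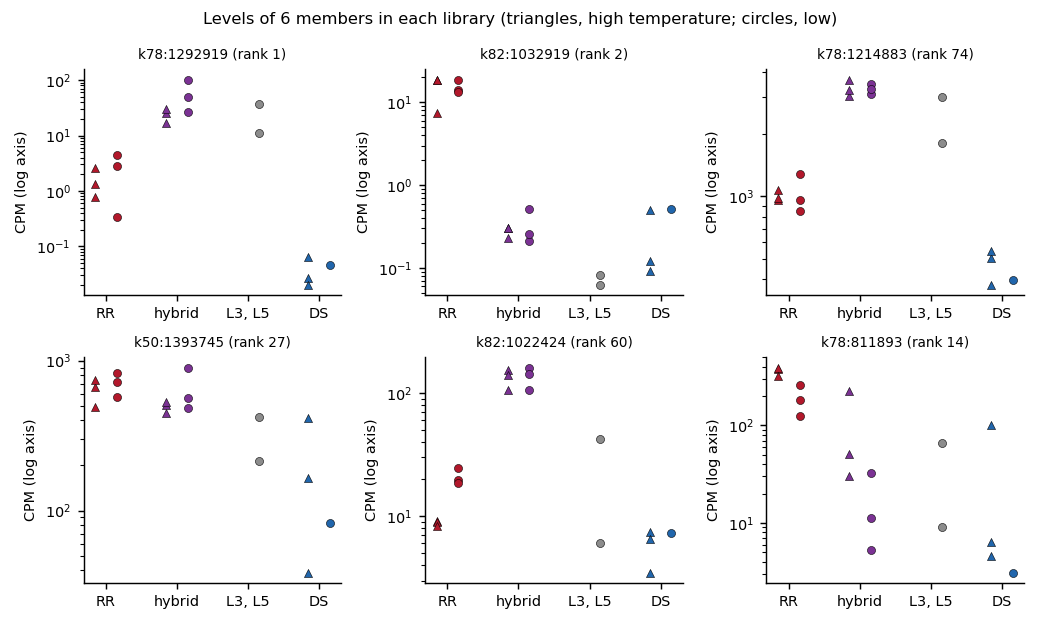
Levels in CPM on a log axis of the members k78:1292919, k82:1032919, k78:1214883, k50:1393745, k82:1022424 and k78:811893 in Red River (RR), hybrid, L3 and L5, and the other Delta Select (DS) libraries; each symbol is 1 library, triangles the high and circles the low temperature. Hybrid libraries lie above Red River libraries for k78:1292919, k78:1214883 and k82:1022424, far below them for k82:1032919, and overlap them for k50:1393745 and k78:811893.

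Whether L3 and L5 carried the members at Delta Select levels could be looked at, since the rule did not use these libraries. L3 lay below every Red River library in 76 members, against 29.7% of all transcripts with at least 2 CPM in Red River fish, and L5 in 75 members, against 20.2%. L3 lay above every Red River library in 7 members, against 19.0%, and L5 in 6, against 17.4%. Because the members were chosen for high Red River values, these shares are a description and nothing is read from their size. The median ratio to the Red River mean was 0.355 in L3 and 0.411 in L5. Against the other 4 Delta Select libraries, L3 was above them all in 41 members, beside 23.6% of transcripts with at least 2 CPM in Red River fish, and below them all in 24, beside 31.9%. L5 was above them all in 43 members, beside 22.6%, and below them all in 12, beside 22.4%. The rule chose those 4 libraries to be low and left L3 and L5 free, so nothing is read from these counts. On a log scale L3 lay nearest to the hybrid mean in 49 members, to the mean of those 4 libraries in 34 and to the Red River mean in 17, and L5 in 31, 44 and 25. The share of all transcripts was not counted for these, and the rule set the means compared, so nothing is read from them either. With L3 and L5 counted as Delta Select libraries in the rule, 63 members still passed every condition and 62 stayed among the top 100. The members with the highest level of L3 and L5 relative to Red River were k78:1292919, described above, and k90:549743. The transcript k90:549743, of rank 38, had 3.89 CPM in the lowest and 7.30 in the highest Red River library, and 23.4 to 40.6 CPM in hybrids. L3 had 26.8 CPM of it and L5 had 11.9 CPM, whereas the other Delta Select libraries reached 2.65 CPM at most.

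In hybrids most members lay under Red River level, and a few lay far above it and above the 4 Delta Select libraries of the rule. The hybrid mean was under the Red River mean in 84 members and under 0.5 of it in 65, and the median ratio of the hybrid mean to the Red River mean was 0.393. Against the mean of the 4 Delta Select libraries the median ratio was 1.07. All 6 hybrid libraries lay below every Red River library in 57 members, against 16.4% of all transcripts with at least 2 CPM in Red River fish. They lay above every Red River library in 8, against 8.93%, and above all 4 Delta Select libraries in 23, against 9.67%. The members were chosen for high Red River and low Delta Select values and carried a lower limit on the hybrid mean, so these shares describe the list and are not tested. In 54 members the hybrid libraries lay below Red River libraries and overlapped those 4 Delta Select libraries, and in 21 they overlapped both. The share of all transcripts with these patterns was not counted, so nothing is read from these counts. In 14 members, beside 2.8% of transcripts, the hybrid libraries lay above all 4 Delta Select libraries and overlapped Red River libraries. In 2, beside 17.8%, they lay below all 4 Delta Select libraries, and in 1, beside 0.0029%, between the strains without overlap.

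The ends of this range were far apart. The highest ratios of hybrid to Red River mean were 20.4 for k78:1292919 and 9.08 for k82:1022424, of rank 60. The transcript k82:1022424 had 105.2 CPM in the lowest, 142.5 in the median and 161.4 in the highest hybrid library, and 8.35, 13.9 and 24.8 CPM in Red River libraries, so the groups did not overlap. L5, at 42.8 CPM, also lay above every Red River library, while L3, at 6.05 CPM, lay within the range of the other Delta Select libraries. The lowest ratios were 0.0198 for k50:1368311, of rank 4, and 0.0202 for k82:1032919. The transcript k50:1368311 had 0.0548 CPM in the lowest, 0.101 in the median and 0.148 in the highest hybrid library, against 2.52, 4.07 and 8.53 CPM in Red River libraries. Its levels in L3 and L5, 0.208 and 0.0422 CPM, and in the other Delta Select libraries, between 0.0901 and 0.224 CPM, were equally low.

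**Figure D3:**
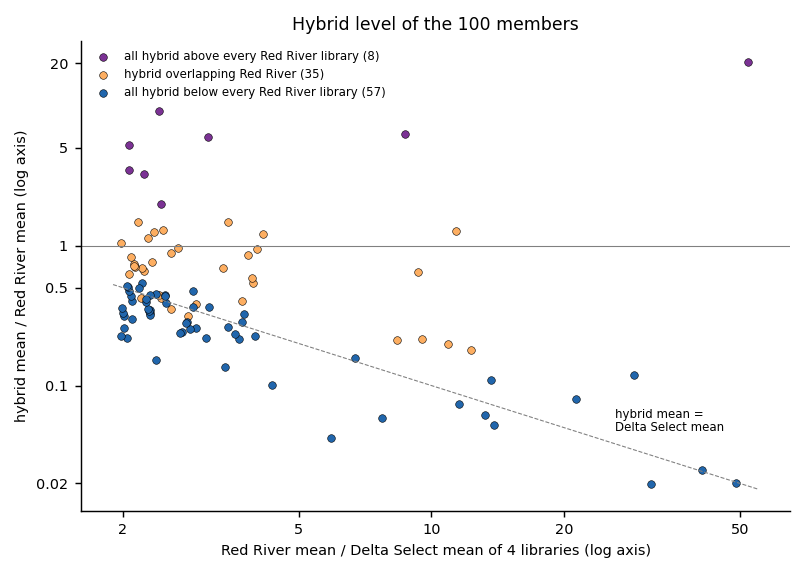
Ratio of the hybrid mean to the Red River mean against the ratio of the Red River mean to the mean of 4 Delta Select libraries, both on log axes, with 1 point per member; the solid line marks equal hybrid and Red River means and the dashed line equal hybrid and Delta Select means. All hybrid libraries lie above every Red River library in 8 members, below every one in 57 and overlap them in 35.

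The members also differed in how even they were among Red River tanks. The coefficient of variation over the 6 Red River libraries had a median of 27.6% and ran from 5.85% to 120.0%. Its median was 32.0% over hybrid libraries and 34.1% over the 4 Delta Select libraries. The rule limited low Red River and high Delta Select values. Those 4 libraries also had lower levels, with a median over members of 1.70 against 5.03 CPM, and only L8 was at the low temperature. Nothing is therefore read from the order of these medians. The most even were k50:2872518, with 13.6 CPM in the lowest and 15.9 in the highest Red River library, and k82:1065311, with 23.6 and 28.4 CPM. The most uneven were k78:1271436, with 0.717 and 13.2 CPM, and k62:2060939, with 0.552 and 9.71 CPM. In both uneven members all 3 high-temperature Red River libraries lay above all 3 low-temperature ones, as given next.

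Temperature was compared within Red River fish on raw counts with edgeR, whose quasi-likelihood test was run over 96799 transcripts, the 100 members among them, with p-values adjusted over all of these. A member with an adjusted p under 0.05 is called. The rule took the Red River and hybrid means over both temperatures, 3 libraries of each. The requirement that every Red River library lie above Delta Select disfavoured members with a large spread. A scarce transcript could still meet the limit of 2 CPM through the libraries of a single temperature, which favoured large changes among scarce members. In Red River fish 7 members were called, 4 higher at the high temperature (3.75% of all transcripts tested were called higher) and 3 lower (2.34%). Together this was close to the 6.09% called among all transcripts. The median log2 fold change of the members was -0.0071, beside 0.0031 for all transcripts tested. All 3 high-temperature libraries lay above all 3 low-temperature libraries in 12 members, against 15.2% of transcripts with at least 2 CPM in Red River fish, and below them in 17, against 19.8%.

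The largest rises in Red River fish came from members of ranks 5, 6 and 7, scarce in every other group. In each of them every low-temperature Red River library lay under 2 CPM. They met the limit of 2 CPM on the Red River mean only through high-temperature libraries, so the rule favoured such rises. Their values are therefore a description. The transcript k78:348278 had 1.29 CPM in H1, 5.82 in H4 and 3.74 in H7, against 0.359 in L2, 0.478 in L6 and 0.442 in L9. Every high-temperature library was above every low-temperature library. Its log2 fold change was 3.16 ± 0.46 (SE; edgeR adjusted p = 0.000253). The transcript k78:1271436 had 2.43 CPM in H1, 13.2 in H4 and 6.54 in H7, against 0.717 in L2, 0.982 in L6 and 0.934 in L9, and the order of the libraries was the same. Its log2 fold change was 3.16 ± 0.48 (SE; edgeR adjusted p = 0.000594), and it lost the call with only the Red River groups fitted (adjusted p = 0.0778). In hybrids the log2 fold changes were 1.24 ± 0.82 for k78:348278 and 0.58 ± 0.63 for k78:1271436, with edgeR adjusted p of 0.537 and 0.756. Hybrid levels were at most 0.212 and 0.526 CPM.

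Falls in Red River fish were smaller. The transcript k78:347223, of rank 45, had 3.44 CPM in H1, 3.39 in H4 and 2.78 in H7, against 8.14 in L2, 12.5 in L6 and 6.59 in L9, without overlap. Its log2 fold change was -1.41 ± 0.29 (SE; edgeR adjusted p = 0.00584), and the call held in each of 13 alternatives. The transcript k58:777114, of rank 59, had 3.88 CPM in H1, 3.55 in H4 and 2.78 in H7, against 6.18 in L2, 9.67 in L6 and 6.17 in L9, again without overlap. Its log2 fold change was -1.02 ± 0.26 (SE; edgeR adjusted p = 0.0206), and the call was lost without H4, without H7 or without L6, with adjusted p of at most 0.111. The remaining Red River calls were 2 rises and 1 fall. The 4 rises thus spanned log2 fold changes of 0.95 to 3.16 and the 3 falls -0.94 to -1.41. All 7 calls were kept in DESeq2 and in limma-voom, but only 4 of the 7 with only the Red River groups fitted.

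In hybrids 3 members were called, beside 2.95% of all transcripts tested, with 2 higher at the high temperature (1.77% of all transcripts tested were called higher) and 1 lower (1.18%). The median log2 fold change was -0.074, beside 0.017 for all transcripts. The transcript k86:821724, of rank 81, had 17.2 CPM in H2, 18.0 in H6 and 17.6 in H8, against 3.05 in L1, 5.88 in L4 and 5.04 in L7. Its high-temperature libraries were nearly equal and lay above all low-temperature libraries. The log2 fold change was 1.80 ± 0.31 (SE; edgeR adjusted p = 0.0031), and the call held in each of 13 alternatives. The transcript k78:1272848, of rank 48, had 13.2 CPM in H2, 12.2 in H6 and 12.1 in H8, against 2.04 in L1, 3.73 in L4 and 4.28 in L7. The groups did not overlap, and the log2 fold change was 1.78 ± 0.45 (SE; edgeR adjusted p = 0.0493), a call lost in 8 of 13 alternatives, among them leaving out any of the 6 hybrid libraries (adjusted p of at most 0.164). In Red River fish neither was called with all libraries, at log2 fold changes of 0.52 ± 0.29 and 0.63 ± 0.43 (SE; edgeR adjusted p = 0.369 and 0.477). With only the Red River groups fitted both were called, at 0.52 ± 0.15 and 0.63 ± 0.16 (SE; edgeR adjusted p = 0.0489 and 0.0305).

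The fall in hybrids was that of k78:347223, which also fell in Red River fish. It had 1.42 CPM in H2, 1.05 in H6 and 0.991 in H8, against 3.98 in L1, 2.00 in L4 and 2.19 in L7, without overlap. The log2 fold change was -1.34 ± 0.31 (SE; edgeR adjusted p = 0.0247), a call lost in 4 of 13 alternatives, namely limma-voom and leaving out H6, H8 or L1 (adjusted p of at most 0.128). With all libraries it was the only member called in both types. More members were called in both without L3 and L5, and also with each type fitted alone. Among the latter was k58:777114, at -1.03 in Red River fish and -0.97 in hybrids (edgeR adjusted p = 0.00313 and 0.0391). The share of all transcripts called in both was not counted, so nothing is read from this about the members. All 3 high-temperature hybrid libraries lay above all low-temperature ones in 11 members, against 19.2% of transcripts, and below them in 14, against 9.81%. The direction of the log2 fold change was the same in Red River and hybrid fish in 67 members, beside 65.7% of all transcripts tested.

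More members were called in each of these types once L3 and L5, which belong to neither, were left out of the fit that estimates the spread. Red River fish then had 13 calls (7.12% of all transcripts tested), 6 rises (3.72% of all transcripts) and 7 falls (3.4%), and hybrids 12 calls (3.67%), 4 rises (2.01%) and 8 falls (1.67%). These held all 7 and all 3 of the calls made with every library. For k58:777114 the hybrid log2 fold change was -0.98 in that fit (edgeR adjusted p = 0.00866) and -0.97 with all libraries (adjusted p = 0.058), so the size stayed while the call changed. A difference in response between hybrids and Red River fish was called in 0 members by edgeR and in 0.0% of all transcripts. At an unadjusted p under 0.05 there were 8 members. The share of all transcripts at that limit was not counted, so nothing is read from that number. DESeq2 called 0 members, beside 0.0848% of transcripts, and limma-voom 0, beside 0.0%. Without L3 and L5 it was called in 0 members and in 0.00287% of all transcripts. The smallest p among members was that of k62:2060939, whose log2 fold change was lower in hybrids than in Red River fish by -2.91 ± 0.75 (SE; edgeR adjusted p = 0.588). In Red River fish it had 1.99 CPM in H1, 9.71 in H4 and 5.42 in H7, against 0.552 in L2, 0.806 in L6 and 0.713 in L9. In hybrids it stayed between 0.243 and 0.551 CPM.

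**Figure D4:**
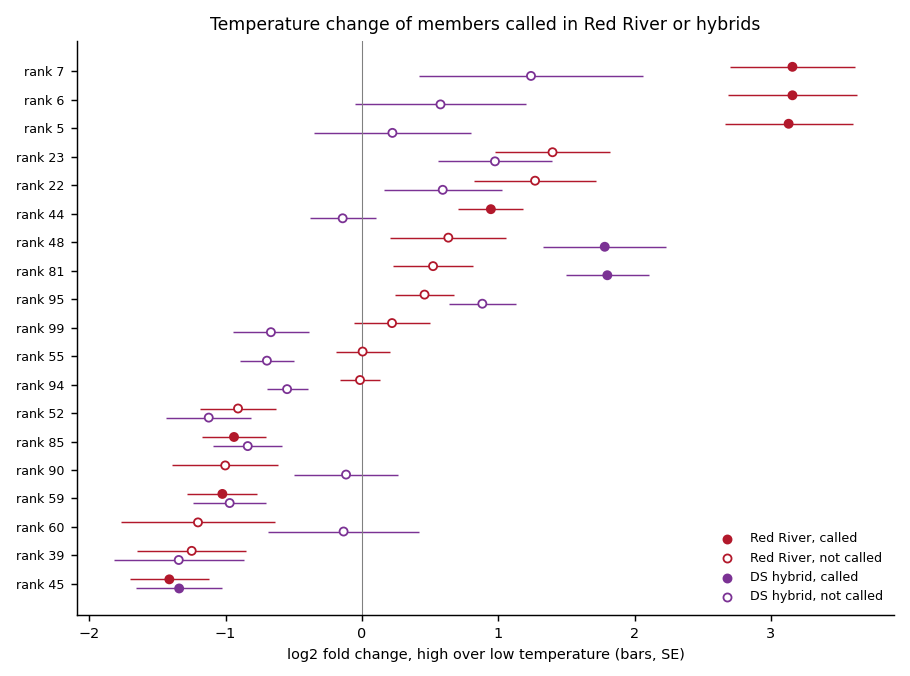
Log2 fold change at the high over the low temperature in Red River and hybrid fish, with SE bars, for the 19 members called in either type with all libraries or without L3 and L5; filled points are called with all libraries and rows are named by rank. Of these members 9 were called with all libraries, and the members of ranks 5, 6 and 7 have the largest Red River rises.

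In Delta Select fish the contrast of temperatures shared libraries with the rule. H3, H5, H9 and L8 were required to be low while L3 and L5 were not, so the choice of members favoured higher values at the low temperature. The values are therefore a description. Of the members 12 were called, beside 12.8% of all transcripts tested, with 1 higher (5.64%) and 11 lower at the high temperature (7.2%), with a median log2 fold change of -0.37 beside -0.0065 for all transcripts. Without L3 and L5 there were 2 calls, beside 2.66% of all transcripts tested, with 0 rises (1.22%) and 2 falls (1.43%), 1 of them shared, with L8 alone taken to vary like the other groups. The fall of k78:1292919, at -8.78 ± 1.91 (SE; edgeR adjusted p = 0.0111), became -0.56 (adjusted p = 0.967) without L3 and L5. The fall of k82:9838, of rank 16, was -4.89 ± 0.85 (SE; edgeR adjusted p = 0.00324) and became -1.75 (adjusted p = 0.166).

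For k82:9838 the levels at the high temperature were 0.158 CPM in H3, 0.489 in H5 and 0.587 in H9, while L3 had 22.5 CPM, L5 had 9.95 and L8 had 1.10. L3 and L5 lay toward the hybrid range of 25.7 to 40.5 CPM, while L8 lay above every high-temperature library and far below L3 and L5. The rise was that of k90:1941671, with 32.7 CPM in H3, 34.6 in H5 and 50.0 in H9, while L3 had 16.2 CPM, L5 had 16.7 and L8 had 26.9. Its log2 fold change of 0.84 ± 0.27 (SE; edgeR adjusted p = 0.0452) became 0.29 (adjusted p = 0.752) without L3 and L5, and it lost the call in 9 of 13 alternatives.

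Averaged over the 3 types, 24 members were called, beside 20.2% of all transcripts tested, with 6 higher (10.5%) and 18 lower at the high temperature (9.75%), with a median of -0.22 beside -0.0061. This contrast includes the Delta Select one and its tie to the rule. Without L3 and L5 it had 19 calls, with 4 rises (7.03%) and 15 falls (7.96%), and 16 calls were shared. The largest averaged rises were 1.76 ± 0.38 for k78:348278 and 1.35 ± 0.35 for k78:1271436 (SE; edgeR adjusted p = 0.00325 and 0.0118). Both members met the rule through their high-temperature Red River libraries, as given above. The largest averaged falls, of k78:1292919 at -3.62 ± 0.87 and k82:9838 at -1.40 ± 0.42 (edgeR adjusted p = 0.011 and 0.0333), were not called without L3 and L5, where they were -0.90 and -0.37. Nor was k78:1271436, at 1.44 (adjusted p = 0.0797). The call of k82:9838 was also lost without any one of 11 single libraries and in limma-voom, with adjusted p of at most 0.406 over all its alternatives.

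The difference in response between Red River and Delta Select fish shares libraries with the rule as well. The choice of members favoured higher Delta Select values at the low temperature, and so a higher response in Red River fish. The values are therefore a description. By edgeR it was called in 0 members and in 0.0% of all transcripts. At an unadjusted p under 0.05 there were 24 members. The share of all transcripts at that limit was not counted, so nothing is read from that number. DESeq2 called 8, beside 1.26% of the transcripts to which it gave an adjusted p, and limma-voom 0, beside 0.0%. The smallest p was that of k82:9838, with a log2 difference in response of 5.70 ± 1.09 (SE; edgeR adjusted p = 0.177), which became 2.51 ± 0.70 (adjusted p = 0.319) without L3 and L5. In Red River fish this transcript had between 2.77 and 8.52 CPM, and its log2 fold change was 0.80 ± 0.70 (edgeR adjusted p = 0.614). Without L3 and L5 edgeR called 1 member, beside 0.0326% of all transcripts tested in either direction and 0.022% with the higher response in Red River fish. This was k62:449608, of rank 20, named here after its values were seen, which had 0.433 CPM in H3, 0.285 in H5 and 0.217 in H9, while L8 alone had 2.39 CPM. That fit has L8 alone at the low temperature, with its spread taken from the other groups, and all 4 libraries are ones the rule used, so the call is a description. Without L8, which leaves the low-temperature Delta Select group with L3 and L5, 11 members were called for this difference, beside 2.46% of all transcripts tested. Of these members 10 had the higher response in Red River fish, the direction that the choice of members favoured. Nothing is therefore read from this count.

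Some members rose and fell together from tank to tank. Likeness was measured as Pearson's r between members over the 18 libraries, on log2 of the CPM plus 0.5 after the mean of each of the 6 groups was taken off. The median r over all 4950 pairs was 0.03. At a limit of 0.9, chosen after the values were seen, 51 pairs were joined and 36 members fell into 12 sets, while 64 members were in none. Of these pairs 21 also reached 0.9 over the 16 libraries without L3 and L5. These values are descriptions, since pairs share libraries and depth, and identifiers that share sequence could divide the same reads.

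The most alike pair was k78:811893 and k94:1257213u, of ranks 14 and 17, with r = 0.992 over 18 libraries and 0.991 without L3 and L5. The transcript k78:811893 had 381.7 CPM in H1, 392.7 in H4 and 321.8 in H7, against 181.1 in L2, 258.8 in L6 and 124.7 in L9. Its partner had 87.5, 89.7 and 75.4 CPM in the same high-temperature libraries, against 43.0, 57.9 and 27.6 CPM at the low temperature. Both were uneven in the other types. The transcript k78:811893 had 226.5 CPM in H2 and at most 51.1 CPM in the other hybrid libraries, and 102.1 CPM in H3 and at most 6.46 CPM in H5, H9 and L8. For its partner H2 and H3 stood out likewise, at 51.8 and 27.0 CPM. The temperature change in Red River fish, at log2 fold changes of 1.05 ± 1.27 and 1.06 ± 1.23, was not called with all libraries (edgeR adjusted p = 0.74 and 0.725). With only the Red River groups fitted both were called, at 1.038 ± 0.205 and 1.055 ± 0.205 (SE; edgeR adjusted p = 0.00804 and 0.0078). The call thus depended on which groups gave the spread.

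The next pair, k70:1605957 and k50:2872518, with r = 0.987 over 18 libraries and 0.971 without L3 and L5, belonged to a set of 9 members, of ranks 53 to 91. Of these 9, 8 were also joined when L3 and L5 were left out. The set was even in Red River fish, where the median of its members relative to their Red River mean lay between 0.782 and 1.17. It lay between 0.239 and 0.540 in hybrids and between 0.233 and 0.658 in H3, H5, H9 and L8. L5 was at Red River level, at 1.006, while L3 was at 0.134, below every other library. For k50:2872518 this meant 13.9 CPM in L5 and 1.56 CPM in L3, against 13.6 to 15.9 CPM in Red River libraries and 2.38 to 10.8 CPM in the other Delta Select libraries.

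**Figure D5:**
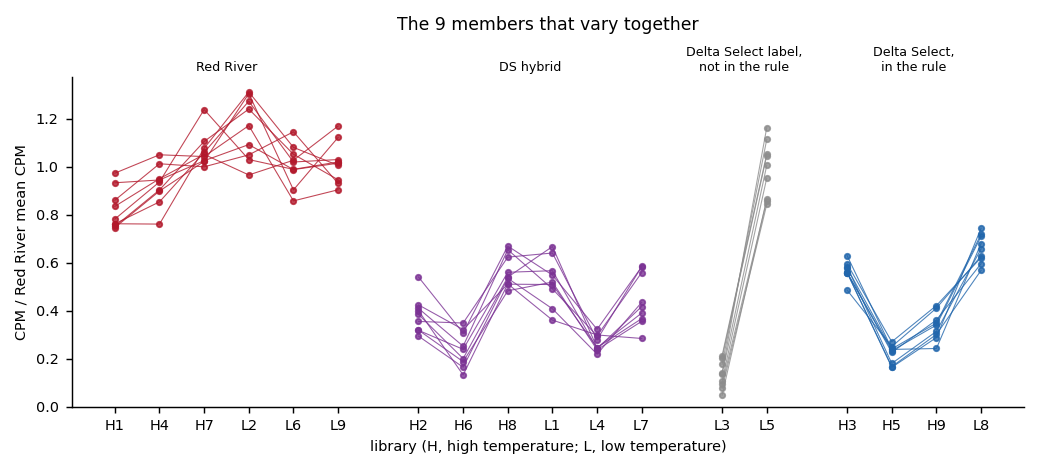
Levels of the 9 members that vary together, as CPM over the Red River mean of each member, in the 18 libraries; each line is 1 member and lines join libraries of a group only to guide the eye. The members move in parallel, and the median over the 9 is 0.134 in L3 and 1.006 in L5.

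A set of 4, of ranks 5, 6, 7 and 41, held the 3 members with the largest Red River rises at the high temperature. The member of rank 41, k82:1054919, named here after its values were seen, was not called, at a log2 fold change of 0.38 ± 0.31 (SE; edgeR adjusted p = 0.575). It had 1.29 CPM in H1, 4.56 in H4 and 3.61 in H7, against 2.70 in L2, 2.85 in L6 and 2.16 in L9, so its temperature groups overlapped. In all 4 members H4 was the highest Red River library and H1 the lowest of the high-temperature ones. The pair of k82:1022424 and k86:414506, of ranks 60 and 90, had r = 0.959 over 18 libraries and 0.975 without L3 and L5. Both were far higher in hybrids than in Red River fish, with ratios of the means of 9.08 and 3.49. In Red River fish their high-temperature means were 8.78 ± 0.38 and 10.4 ± 0.24 CPM, against 21.0 ± 3.29 and 21.6 ± 2.61 CPM at the low temperature (SD, n = 3 each). The log2 fold changes of -1.20 ± 0.57 and -1.003 ± 0.390 were not called with all libraries (edgeR adjusted p = 0.273 and 0.166), but were called without L3 and L5, at -1.24 and -1.04 (adjusted p = 0.00536 and 0.00384).

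Other pairs owed their likeness to L3 and L5. For k82:9838 and k78:1214883 r was 0.92 over 18 libraries and 0.285 without L3 and L5. For k78:1292919 and k90:549743 it was 0.915 and 0.5995. These 4 members were all higher in hybrids than in Red River fish and in H3, H5, H9 and L8, and all were raised in both L3 and L5.

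The identifiers themselves carried little more. The members came from 12 k-mer sizes of the assembly, from 50 to 94. Of them 12 were of size 50, beside 7.41% of the transcripts with at least 2 CPM in Red River fish and 19.5% of all identifiers. Nothing is read from this number. The identifiers of 5 members ended in the letter u, beside 6.1% of all identifiers, and what the letter marks is not given in the sources used here.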

How the data were processed

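Per the labels' protocols, single reads of 50 bases were made from liver RNA of 18 pools, with RNA integrity numbers of 8.2 to 9.9. The deposited table gives raw read counts of 144746 assembled transcripts. A row without a transcript name, with 24.2% to 25.6% of the reads of a library, was left out. The submitters' processing notes name Bowtie2 2.1.0, DESeq 1.12.1 and R 3.1.0 but not what each did. How transcripts were assembled and reads counted, by strand or not and where shared, is not given in the sources used here, so levels of near-identical transcripts are uncertain. A second deposited table, of normalized values, was not used.

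Levels are CPM from the deposited counts, with no further scaling. Tests used edgeR 4.0.16 (quasi-likelihood, robust) in R 4.3.3 with TMM scaling, 1 mean per group over all 18 libraries, filterByExpr (minimum count 10, minimum total 15; 96799 kept, 47947 left out) and Benjamini-Hochberg adjustment. Standard errors come from the F statistic. P-values set each temperature contrast against the spread between tanks. In the main fit that spread was estimated over the libraries of all groups, with information shared across transcripts. Library codes are not shared between groups and pair no samples. The 18 pairs of libraries within groups differed by a chi-square of 7.47 to 36.2 per degree of freedom, so none agreed within sampling noise. Alternatives were DESeq2 1.42.0, limma-voom (limma 3.58.1), other size factors, other filters, only the groups compared, leaving out each library, and leaving out L3 and L5. The fitting code was run on simulated counts that had the same spread for every transcript and no deviating libraries. That run checks the code and does not show how the fit behaves on these data.

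The members, the rule and the lists were chosen with earlier results of these data known. Named transcripts follow a rule: ranks 1, 2, 100 and 101, the highest Red River means, the extremes of hybrid to Red River ratio, of spread and of L3 and L5, up to 2 rises and 2 falls per temperature contrast, and the 2 most alike pairs. The pair of ranks 60 and 90, the sets, the pairs that rest on L3 and L5, and the limit on r were chosen after their values were seen. Lists of liver and other cell markers were not applied, since the identifiers carry no gene names.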

Additional observations from a re-analysis of the deposited data

Results flagged for a closer look

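Single libraries of named members were looked at for a gap to the next library that is large for the group's range, in 63 groups of 4 to 6 libraries, of which 6 had one. The limit is set so that about 1 in 20 groups of normally distributed values has such a gap. These groups mix both temperatures and belong to members named partly for extreme values. That share therefore need not hold for them, and nothing is read from the number flagged. L7 was the highest hybrid library for k82:1032919, at 0.521 CPM with the next at 0.303, and for k50:1393745, at 899.6 CPM with the next at 562.1. H2 was the highest hybrid library for k78:811893, at 226.5 CPM with the next at 51.1, and for k94:1257213u, at 51.8 CPM with the next at 11.1. H3 was the highest of the 4 Delta Select libraries for the same members, at 102.1 CPM with the next at 6.46 and at 27.0 CPM with the next at 1.30. These 2 members vary together, so their gaps are not independent.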

How the results depend on the processing

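The count of members called for temperature in Red River fish, 7, was 12 in DESeq2, 16 with only the groups compared and 13 without L3 and L5, and 4 to 7 when 1 library was left out, the lowest without H4. In hybrids the count of 3 was 1 with members chosen on TMM-scaled CPM, 5 at a mean of at least 50 reads, 9 in DESeq2, 9 with only the groups compared and 12 without L3 and L5, and 1 to 3 when 1 library was left out, the lowest without L1. In Delta Select fish the count of 12 was 1 with only the groups compared and 2 without L3 and L5, and 8 to 23 when 1 library was left out, the highest without L8. The averaged count of 24 was 18 to 32 over its alternatives; the fit of only the groups compared is the same there. The count of differing responses between Red River and Delta Select fish, 0, was 8 in DESeq2, 1 without L3 and L5, and 0 to 11 when 1 library was left out, the highest without L8. Between hybrids and Red River fish it was 0 in every alternative. The share of all transcripts called can move with the fit as well. It is not given beside each of these counts, so they describe the fits and nothing is read from them about the members. Causes were not tested. Of the 100 members, 90 were kept on TMM-scaled CPM, 94 with no condition on hybrids, 62 with L3 and L5 counted, 26 at a Red River mean of at least 10 CPM, and 63 to 91 when 1 library was left out, the lowest without H9. The other counts moved little: 15 to 17 members had a hybrid mean at or above the Red River mean, and 76 and 75 had L3 and L5 below every Red River library on TMM-scaled CPM as well. Of the 16 log2 fold changes called or of smallest p that are named for a contrast, 0 changed sign in an alternative. They were picked for size or small p, and the alternatives reuse most of the same libraries. Nothing is therefore read from the kept signs, and several of the calls were lost, as given above. No paired analysis was possible because no replicate code is shared between groups. The low counts of 14 members in Delta Select libraries limit how precisely their ratios are known, and 3 libraries per group limit the tests.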
